A study of Mus musculus with 11 samples.

Results

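The genes described here are 36 markers of cholangiocytes and of the ductular reaction, measured in tumour-free mouse liver. They were taken from a list of symbols: a probe set counted for a gene only if it was annotated to that symbol alone, and where a gene had more than 1 such probe set the one with the highest mean over the 11 arrays was used. All 36 genes were measured, of 19938 genes on the array, and only Bicc1 had more than 1 probe set of its own. Total RNA from liver of male mice aged 14 months was hybridised to Affymetrix arrays in 3 groups. The Mdr2-KO/IL6-KO group (4 arrays) lacked both Mdr2, the product of Abcb4, and interleukin 6. The Mdr2-KO group (4 arrays) lacked Mdr2 alone, and the wild-type group (WT, 3 arrays) was labelled C57BL/6. The labels give no strain for the knockout groups, do not say whether the deletions act in all cells, and do not say whether any arrays share a mouse, so p-values measure only the spread between these samples. All values are log2 levels as deposited, and differences between groups are log2 changes.

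Cholangiocytes are the epithelial cells that line the bile ducts. They seal the duct with tight and adherens junctions, modify bile by secreting bicarbonate and fluid, and carry keratins that most hepatocytes lack. Abcb4 encodes the canalicular transporter that puts phosphatidylcholine into bile, and without it bile acids injure the duct epithelium and portal fibrosis follows. Chronic injury of this kind raises a ductular reaction, in which small ducts and duct-like cells of biliary phenotype spread from the portal tracts.

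The targeted gene bore out the Mdr2 label on every array. The Abcb4 probe set read 7.83, 8.14, 8.32 and 8.08 in Mdr2-KO/IL6-KO, 7.63, 7.81, 7.54 and 7.98 in Mdr2-KO, and 9.80, 9.95 and 9.74 in WT livers. The change against WT was -1.74 in Mdr2-KO/IL6-KO (limma, Benjamini-Hochberg adjusted p = 6.75e-06) and -2.09 in Mdr2-KO (adjusted p = 2.22e-06). Il6 lay between 1.62 and 2.09 on all 11 arrays, too low to test the IL6 part of the labels. Pearson r between arrays over all probe sets was 0.976 to 0.990. The liver label was met: the mean of 12 hepatocyte markers, among them albumin and transthyretin, was 11.90 to 12.05 on the Mdr2-KO/IL6-KO arrays, 11.94 to 12.09 on the Mdr2-KO arrays and 12.03 to 12.05 on the WT arrays. Titles of the WT samples carry the prefix W and those of both knockout groups the prefix BIL. What this marks is not given in the sources used here, and it cannot be told apart from genotype in comparisons with WT.

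Promoters from RefSeq (GRCm38.p6) were available for 26 of the 36 genes, 10 of them among the 16 genes that were higher than WT in both knockout groups. Short motifs were searched on both strands from 250 bases before to 50 bases after each start: GTGGGAA for RBPJ, the DNA-binding partner of Notch, AACCGGTT for grainyhead-like factors, GTTAATNAT for HNF1, CCGGAAGT for ETS factors such as Ehf and Elf3, and GGAATG for TEAD, the partner of YAP. The 250 bases before the start are shown 5′ to 3′ in the direction of the gene, with a motif match in capitals. Pkhd1 and Krt8 are shown because, of these 26, they were the only genes called higher than WT in a knockout group that held any of these motifs, and Tspan8 and Epcam because they were among the genes furthest above WT and held none. Pkhd1 lies on the minus strand at chr1:20618058-20618307, Krt8 on the minus strand at chr15:102004343-102004592, Tspan8 on the plus strand at chr10:115817034-115817283 and Epcam on the plus strand at chr17:87635729-87635978.
Pkhd1: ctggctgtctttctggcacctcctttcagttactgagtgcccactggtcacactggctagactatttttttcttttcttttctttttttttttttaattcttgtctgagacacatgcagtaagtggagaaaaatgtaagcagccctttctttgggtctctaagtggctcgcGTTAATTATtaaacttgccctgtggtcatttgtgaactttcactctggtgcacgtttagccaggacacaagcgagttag
Krt8: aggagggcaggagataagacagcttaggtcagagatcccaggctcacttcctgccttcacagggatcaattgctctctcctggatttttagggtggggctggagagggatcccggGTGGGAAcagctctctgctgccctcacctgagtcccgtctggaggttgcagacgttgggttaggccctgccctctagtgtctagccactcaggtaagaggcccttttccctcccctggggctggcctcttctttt
Tspan8: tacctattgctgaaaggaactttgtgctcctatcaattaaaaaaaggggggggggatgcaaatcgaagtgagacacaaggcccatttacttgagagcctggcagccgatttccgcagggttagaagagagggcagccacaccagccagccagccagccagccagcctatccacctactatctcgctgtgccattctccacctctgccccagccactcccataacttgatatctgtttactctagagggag
Epcam: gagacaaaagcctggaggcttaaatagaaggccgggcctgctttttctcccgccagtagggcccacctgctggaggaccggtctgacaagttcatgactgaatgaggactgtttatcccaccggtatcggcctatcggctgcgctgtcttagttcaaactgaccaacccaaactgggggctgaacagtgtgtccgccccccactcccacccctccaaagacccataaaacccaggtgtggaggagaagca
The Pkhd1 match is to HNF1 and begins at position -79 from the start of the gene, and the Krt8 match is to RBPJ and begins at position -135.

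Each motif was found in 4 or fewer of the 26 genes, and the share over all genes is given beside each count. The RBPJ letters were found in 2 genes (Krt8 and Slc4a2), against 7.25% of all 27025 genes with a promoter entry, and those for TEAD in 4 (Sox4, Elf3, Cldn7 and Muc1), against 16.6%. The HNF1 letters were found in 1 gene (Pkhd1; 0.940% of all genes), those for ETS in 1 (Cldn7; 4.31%) and those for grainyhead-like factors in 0 (0.174%). Matches to different motifs overlapped in 0 of the 33 promoter entries of these genes. These are matches of letters in a short window and do not show binding.

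Ductular genes were higher in both knockout groups than in WT livers. None of the 36 was called lower, where 1.28% of all genes were in Mdr2-KO/IL6-KO and 0.316% in Mdr2-KO. In Mdr2-KO/IL6-KO livers 22 of 36 genes were called higher at an adjusted p under 0.05, where 2.91% of all genes were (limma over 19938 genes, two-sided). In Mdr2-KO livers 16 of 36 were called higher, where 0.948% of all genes were. The median log2 change of the 36 genes was 0.59 in Mdr2-KO/IL6-KO and 0.50 in Mdr2-KO, while the median over all genes was -0.01 in Mdr2-KO and closer to 0 in Mdr2-KO/IL6-KO. All arrays of the group lay above all WT arrays for 26 of the 36 genes in Mdr2-KO/IL6-KO (9.85% of all genes) and also for 26 in Mdr2-KO (5.49% of all genes). Hes1 was the only gene of the 36 whose change was below 0 in either group. Over all genes, 49.8% had a change above 0 in Mdr2-KO/IL6-KO and 48.3% in Mdr2-KO. The 36 genes were chosen with earlier results of these data known, so their counts beside the shares of all genes are not an independent test. Both comparisons use the same 3 WT arrays. In whole-liver RNA, more cells of a type and more RNA per cell cannot be told apart.

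**Figure D1:**
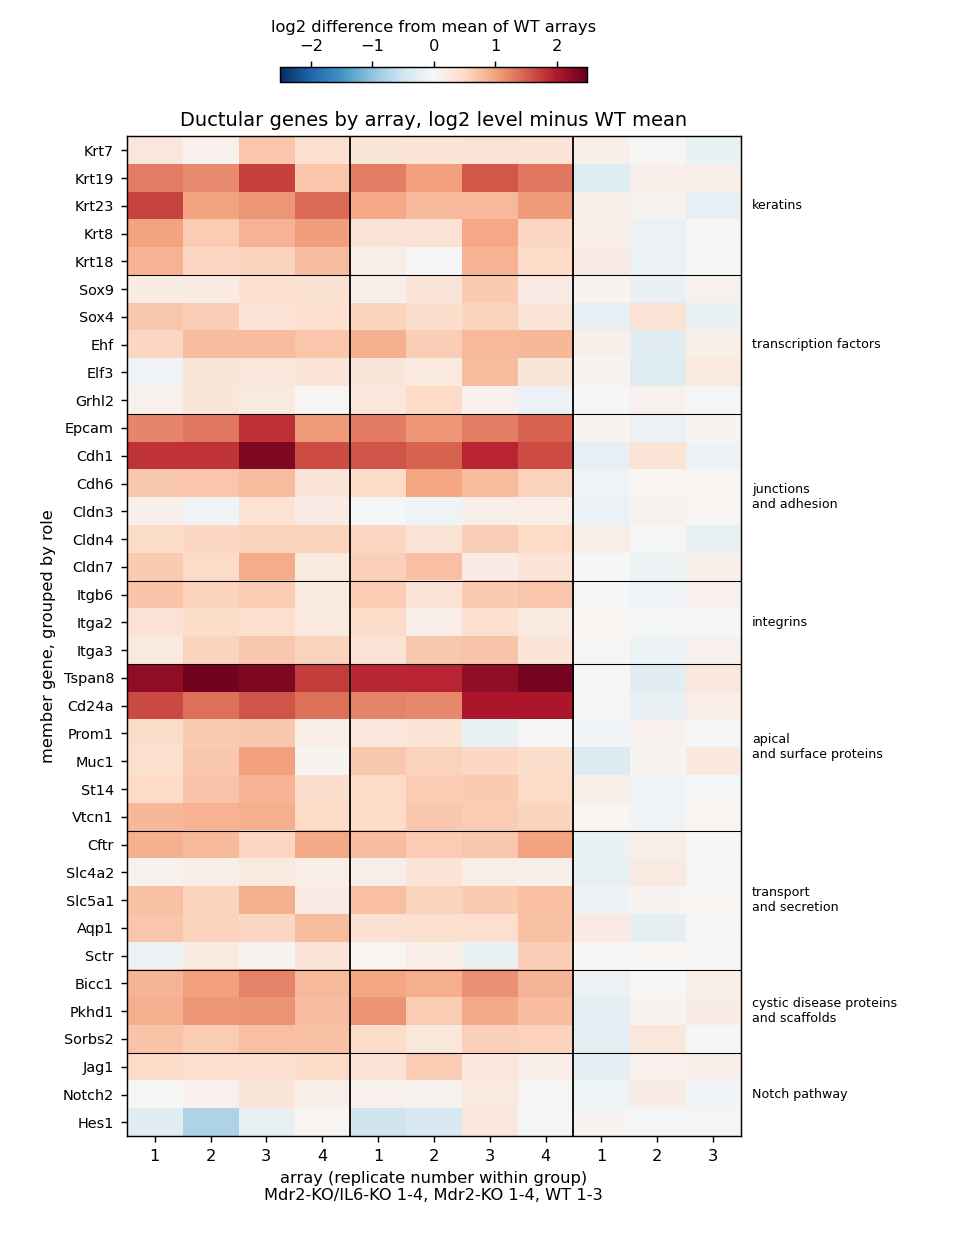
Log2 level of each of the 36 genes on each array minus the mean of the WT arrays, with genes in rows grouped by role and arrays in columns (Mdr2-KO/IL6-KO 1 to 4, Mdr2-KO 1 to 4, WT 1 to 3). Tspan8, Cdh1 and Cd24a show the darkest red across all 8 knockout arrays, and Hes1 is the row with the most blue.

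The 16 genes called in both groups came from most roles of the duct epithelium: the keratins Krt19 and Krt23, the transcription factor Ehf, the adhesion proteins Epcam, Cdh1, Cdh6 and Cldn4, the integrin Itgb6, the surface proteins Tspan8, Cd24a, St14 and Vtcn1, the transporters Cftr and Slc5a1, and Bicc1 and Pkhd1. A further 6 were called in Mdr2-KO/IL6-KO alone: Krt8, Krt18, Itga2, Itga3, Aqp1 and Sorbs2. Being called in 1 group and not the other is no sign of a difference between the knockout groups, which was tested separately. The fold over WT among called genes ran from 1.29 for Itga2 to 4.54 for Tspan8 in Mdr2-KO/IL6-KO, with 6 genes at 2-fold or more, and from 1.40 for Cldn4 to 4.29 for Tspan8 in Mdr2-KO, with 5 at 2-fold or more.

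**Figure D2:**
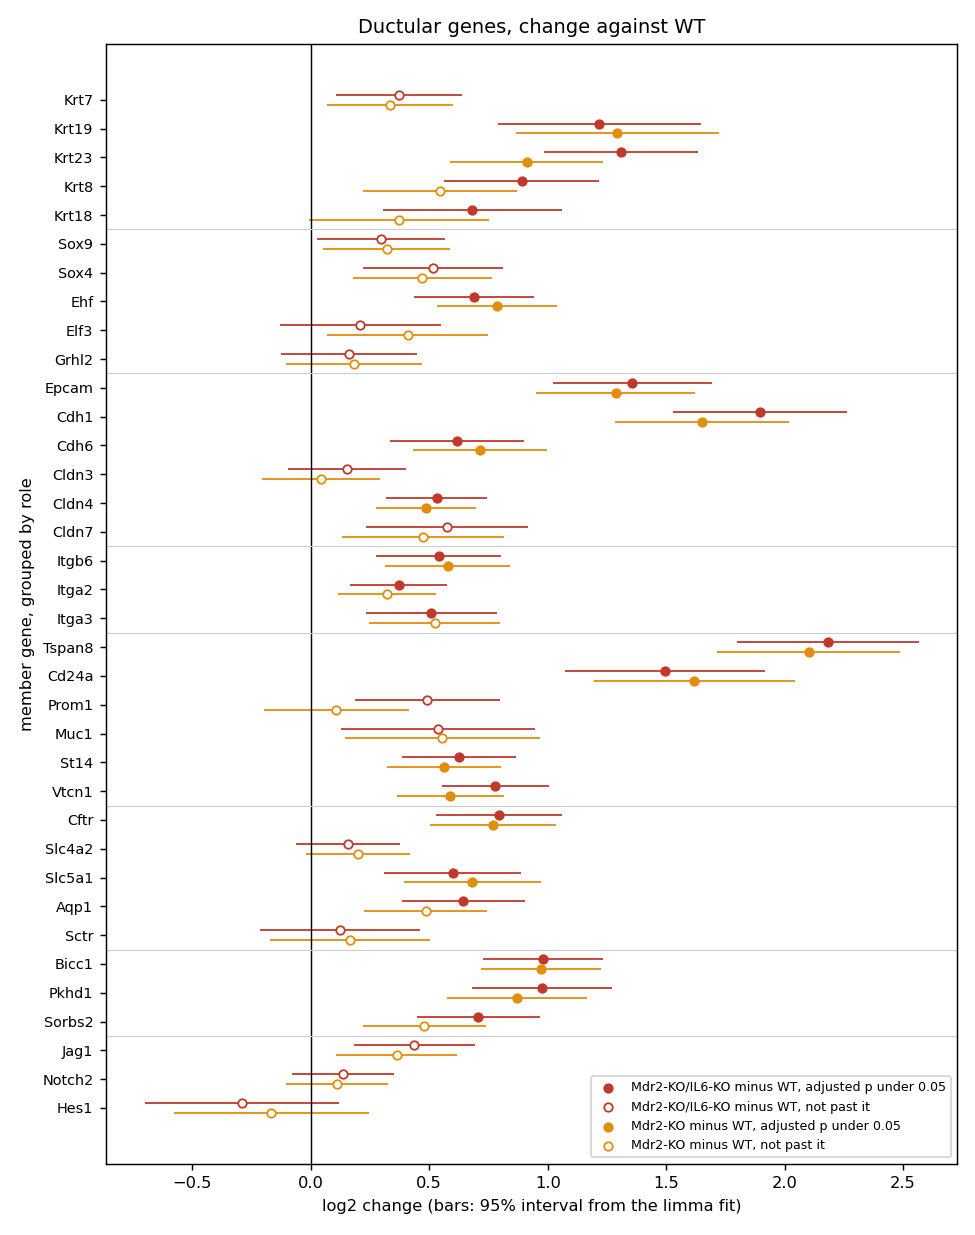
Log2 change against WT for each gene, with genes down the page by role and the 95% interval of the limma fit as bars; Mdr2-KO/IL6-KO minus WT is red and Mdr2-KO minus WT orange, filled where the adjusted p is under 0.05. All called genes, 22 in red and 16 in orange, lie right of 0, and the points of Cldn3, Sctr, Notch2 and Hes1 lie close to 0 or left of it.

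Keratins build the intermediate filaments of epithelia, and Krt7 and Krt19 are the pair used to stain bile ducts. Of 5 keratins, 4 rose in Mdr2-KO/IL6-KO (2.91% of all genes) and 2 in Mdr2-KO (0.948% of all genes). Krt19 read 6.45, 6.36, 6.89 and 5.88 in Mdr2-KO/IL6-KO, 6.47, 6.21, 6.72 and 6.49 in Mdr2-KO, and 4.87, 5.31 and 5.35 in WT livers. Every knockout array lay above every WT array, and the knockout groups overlapped. It rose 2.32-fold in Mdr2-KO/IL6-KO (1.22 ± 0.20 SE on the log2 scale, adjusted p = 0.00334) and 2.45-fold in Mdr2-KO (1.29 ± 0.20, adjusted p = 0.00561).

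Krt23, a keratin of injured and proliferating ductules, read 5.82, 5.14, 5.24 and 5.54 in Mdr2-KO/IL6-KO, 5.09, 4.93, 4.94 and 5.19 in Mdr2-KO, and 4.26, 4.21 and 3.92 in WT livers. It rose 2.48-fold in Mdr2-KO/IL6-KO (1.31 ± 0.15 SE on the log2 scale, adjusted p = 0.000325) and 1.88-fold in Mdr2-KO (0.91 ± 0.15, adjusted p = 0.00853). The WT arrays again lay below all others. Krt8 and Krt18 pair in the filaments of simple epithelia, hepatocytes included. Krt8 read 11.33, 10.95, 11.19 and 11.36 in Mdr2-KO/IL6-KO, 10.64, 10.68, 11.28 and 10.85 in Mdr2-KO, and 10.48, 10.16 and 10.31 in WT livers. Mdr2-KO replicate 3 stood with the Mdr2-KO/IL6-KO arrays, and the other Mdr2-KO arrays lay between these and WT. Krt8 rose 1.85-fold in Mdr2-KO/IL6-KO (0.89 ± 0.15, adjusted p = 0.00439), and its change in Mdr2-KO was 0.55 ± 0.15 (adjusted p = 0.125).

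Krt18 averaged 10.67 ± 0.159 in Mdr2-KO/IL6-KO (SD, n = 4), 10.36 ± 0.386 in Mdr2-KO (n = 4) and 9.99 ± 0.184 in WT livers (n = 3). It rose in Mdr2-KO/IL6-KO at an adjusted p of 0.0464, which left the threshold when any WT array, any Mdr2-KO/IL6-KO array or Mdr2-KO replicate 4 was left out (0.0623 to 0.17), and under median centring (0.0641). Its adjusted p in Mdr2-KO was 0.519. Krt7 passed in neither group: it averaged 6.05 ± 0.254 in Mdr2-KO/IL6-KO, 6.01 ± 0.0263 in Mdr2-KO and 5.68 ± 0.141 in WT livers, with an adjusted p of 0.13 in Mdr2-KO/IL6-KO and 0.325 in Mdr2-KO.

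**Figure D3:**
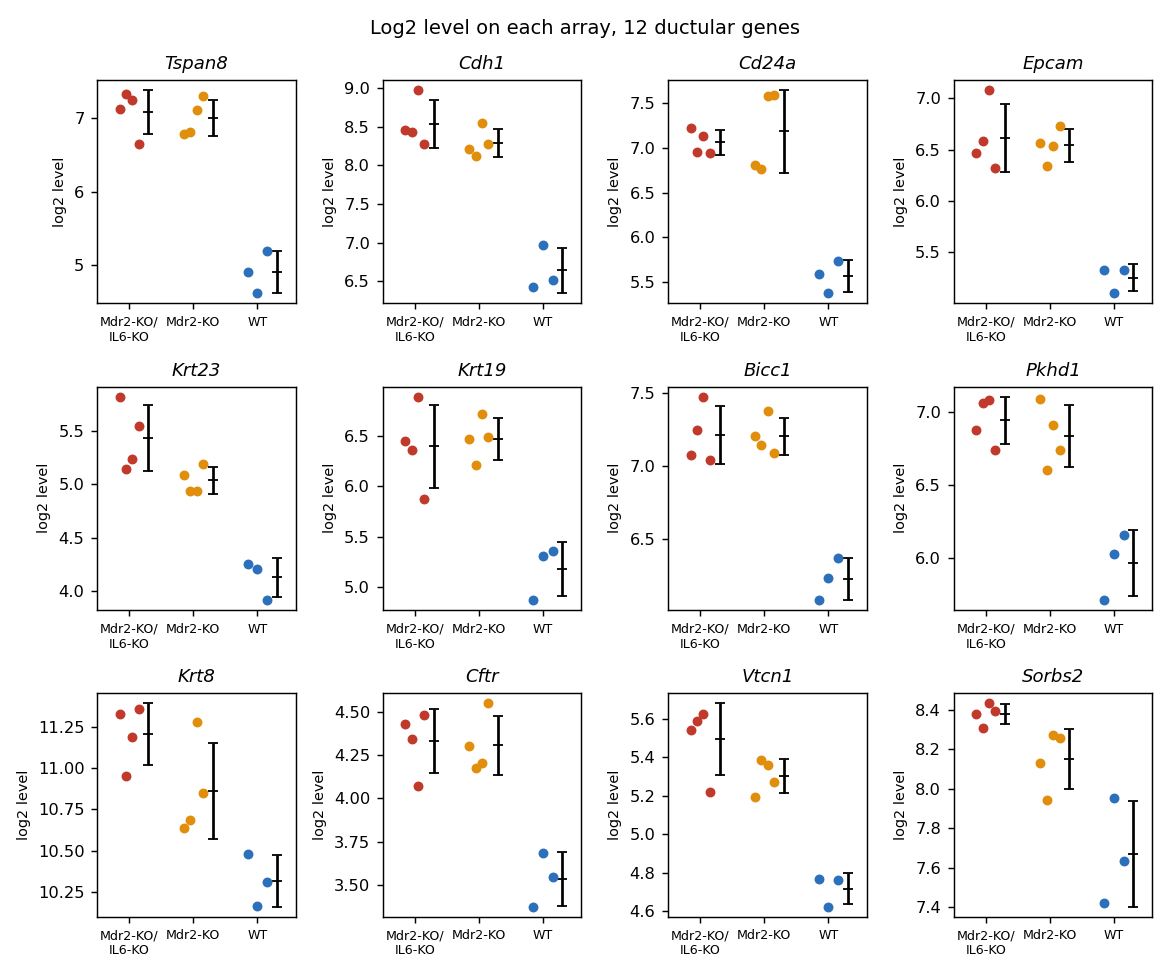
Log2 level on each array for the 12 called genes with the largest log2 change in Mdr2-KO/IL6-KO minus WT, 1 panel per gene with its own axis; points are arrays of Mdr2-KO/IL6-KO, Mdr2-KO and WT, and bars the mean ± SD of each group. In 11 of the panels all 8 knockout arrays lie above all WT arrays; in the Sorbs2 panel 1 Mdr2-KO array lies at the height of the highest WT array.

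Of the 5 transcription factors, Ehf rose in both groups and the others in neither. Ehf, an ETS factor of epithelia, read 5.23, 5.46, 5.48 and 5.39 in Mdr2-KO/IL6-KO, 5.60, 5.31, 5.51 and 5.54 in Mdr2-KO, and 4.83, 4.42 and 4.85 in WT livers. All knockout arrays lay above the WT arrays. It rose 1.61-fold in Mdr2-KO/IL6-KO (0.69 ± 0.12 SE on the log2 scale, adjusted p = 0.00446) and 1.73-fold in Mdr2-KO (0.79 ± 0.12, adjusted p = 0.00531). Sox9, the factor that marks biliary identity and bipotent ductular cells, averaged 6.95 ± 0.111 in Mdr2-KO/IL6-KO, 6.97 ± 0.231 in Mdr2-KO and 6.65 ± 0.15 in WT livers (SD, n = 4, 4 and 3). Its change was 0.30 in Mdr2-KO/IL6-KO (adjusted p = 0.26) and 0.32 in Mdr2-KO (adjusted p = 0.368), although every knockout array lay above every WT array. Sox4, which acts with Sox9 in bile duct formation, read 5.93, 5.88, 5.60 and 5.68 in Mdr2-KO/IL6-KO, 5.81, 5.70, 5.82 and 5.57 in Mdr2-KO, and 5.05, 5.62 and 5.09 in WT livers. WT replicate 2 stood with the knockout arrays. With all arrays its adjusted p was 0.052 in Mdr2-KO/IL6-KO and 0.152 in Mdr2-KO, and without WT replicate 2 it was 0.00859 in Mdr2-KO/IL6-KO and 0.0269 in Mdr2-KO. Elf3, another epithelial ETS factor, had a change of 0.21 in Mdr2-KO/IL6-KO (adjusted p = 0.631) and 0.41 in Mdr2-KO (adjusted p = 0.364). Grhl2, which controls junction genes in epithelia, had a change of 0.16 in Mdr2-KO/IL6-KO (adjusted p = 0.661) and 0.18 in Mdr2-KO (adjusted p = 0.766).

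Adhesion and junction genes had 4 of 6 members called higher in each group (2.91% of all genes in Mdr2-KO/IL6-KO and 0.948% in Mdr2-KO). Epcam, an adhesion protein of biliary epithelium and of hepatic progenitors, read 6.47, 6.58, 7.08 and 6.32 in Mdr2-KO/IL6-KO, 6.56, 6.34, 6.53 and 6.73 in Mdr2-KO, and 5.33, 5.11 and 5.33 in WT livers. The gap between the lowest knockout array and the highest WT array was wider than the range within any group. Epcam rose 2.56-fold in Mdr2-KO/IL6-KO (1.36 ± 0.15 SE on the log2 scale, adjusted p = 0.000321) and 2.44-fold in Mdr2-KO (1.29 ± 0.15, adjusted p = 0.00108). Cdh1, E-cadherin of the adherens junction, read 8.45, 8.44, 8.98 and 8.28 in Mdr2-KO/IL6-KO, 8.22, 8.12, 8.54 and 8.28 in Mdr2-KO, and 6.43, 6.97 and 6.52 in WT livers. The groups of knockout arrays overlapped each other and stayed more than 1 log2 unit above the WT arrays. Cdh1 rose 3.72-fold in Mdr2-KO/IL6-KO (1.90 ± 0.17, adjusted p = 3.69e-05) and 3.14-fold in Mdr2-KO (1.65 ± 0.17, adjusted p = 0.000249).

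Cdh6, K-cadherin, read 5.53, 5.54, 5.63 and 5.18 in Mdr2-KO/IL6-KO, 5.34, 5.84, 5.65 and 5.43 in Mdr2-KO, and 4.76, 4.90 and 4.89 in WT livers. It rose 1.54-fold in Mdr2-KO/IL6-KO (0.62 ± 0.13 SE on the log2 scale, adjusted p = 0.017) and 1.64-fold in Mdr2-KO (0.71 ± 0.13, adjusted p = 0.0153). The arrays did not overlap, but the Mdr2-KO call left the threshold without any 1 WT array (0.0531 to 0.0813), and the Mdr2-KO/IL6-KO call did so without WT replicate 1 or 3 or without replicate 1, 2 or 3 of its own group (0.0501 to 0.0785). Claudins seal the tight junction, and 1 of 3 claudins passed. Cldn4 averaged 5.88 ± 0.0538 in Mdr2-KO/IL6-KO, 5.84 ± 0.117 in Mdr2-KO and 5.35 ± 0.175 in WT livers (SD, n = 4, 4 and 3), and it rose in Mdr2-KO/IL6-KO (adjusted p = 0.00762) and in Mdr2-KO (adjusted p = 0.0289). In Mdr2-KO its call was lost without WT replicate 2 or 3 or replicate 1, 3 or 4 of that group (0.071 to 0.127), and with only the 2 groups compared in the fit (0.11). Cldn7 had a change of 0.57 in Mdr2-KO/IL6-KO (adjusted p = 0.0642) and 0.47 in Mdr2-KO (adjusted p = 0.25). The Mdr2-KO/IL6-KO value passed when replicate 2 of Mdr2-KO (0.0441) or replicate 4 of its own group (0.0267) was left out. Cldn3, which hepatocytes express too, had a change of 0.15 in Mdr2-KO/IL6-KO (adjusted p = 0.629) and 0.04 in Mdr2-KO (adjusted p = 0.962), and all 3 groups overlapped.

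All 3 integrins were called higher in Mdr2-KO/IL6-KO (2.91% of all genes), and 1 of 3 in Mdr2-KO (0.948% of all genes). Integrins are receptors that tie epithelia to laminin and collagen or activate TGF-beta. Itgb6, a subunit that in bile ducts appears after injury, averaged 4.58 ± 0.208 in Mdr2-KO/IL6-KO, 4.62 ± 0.163 in Mdr2-KO and 4.04 ± 0.0967 in WT livers (SD, n = 4, 4 and 3). It rose in Mdr2-KO/IL6-KO (adjusted p = 0.0234) and in Mdr2-KO (adjusted p = 0.0341). The arrays of Itgb6, Itga2 and Itga3 in each knockout group lay above all WT arrays, yet these calls did not hold with every array left out. Itgb6 left the threshold in Mdr2-KO/IL6-KO without WT replicate 1 or 2 or replicate 1, 2 or 3 of that group (0.0631 to 0.0975). In Mdr2-KO it did so without any 1 WT array, replicate 1, 3 or 4 of that group or replicate 2 of Mdr2-KO/IL6-KO (0.0558 to 0.149). Itga2, a collagen-binding subunit, averaged 5.08 ± 0.0973 in Mdr2-KO/IL6-KO, 5.03 ± 0.146 in Mdr2-KO and 4.71 ± 0.0403 in WT livers. It rose in Mdr2-KO/IL6-KO at an adjusted p of 0.046, and in Mdr2-KO its change was 0.32 (adjusted p = 0.164).

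Itga3, a laminin-binding subunit, averaged 6.18 ± 0.189 in Mdr2-KO/IL6-KO, 6.19 ± 0.206 in Mdr2-KO and 5.67 ± 0.123 in WT livers. It rose in Mdr2-KO/IL6-KO at an adjusted p of 0.0424, and in Mdr2-KO its change was 0.52 (adjusted p = 0.0781). The Mdr2-KO/IL6-KO calls of both genes were lost when some arrays were left out. For Itga2 these were any 1 WT array, replicate 4 of Mdr2-KO and replicate 1, 2 or 3 of Mdr2-KO/IL6-KO (0.0577 to 0.144). For Itga3 they were any 1 WT array and replicate 2, 3 or 4 of Mdr2-KO/IL6-KO (0.0792 to 0.165). Under quantile normalization the adjusted p was 0.0542 for Itga2 and 0.0522 for Itga3, and under median centring 0.0657 for Itga2 and 0.0524 for Itga3.

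Among 6 apical and surface proteins, 4 rose in each group (2.91% of all genes in Mdr2-KO/IL6-KO and 0.948% in Mdr2-KO). Tspan8, a tetraspanin of gut and duct epithelia, had the largest change of the 36 genes in both comparisons. It read 7.12, 7.33, 7.24 and 6.65 in Mdr2-KO/IL6-KO, 6.79, 6.82, 7.12 and 7.30 in Mdr2-KO, and 4.91, 4.62 and 5.19 in WT livers. The lowest knockout array was more than 1 log2 unit above the highest WT array. Tspan8 rose 4.54-fold in Mdr2-KO/IL6-KO (2.18 ± 0.18 SE on the log2 scale, adjusted p = 1.88e-05) and 4.29-fold in Mdr2-KO (2.10 ± 0.18, adjusted p = 4.57e-05). Cd24a, a small glycosylated surface protein of progenitor and duct cells, read 7.22, 6.95, 7.14 and 6.94 in Mdr2-KO/IL6-KO, 6.81, 6.76, 7.59 and 7.59 in Mdr2-KO, and 5.59, 5.38 and 5.74 in WT livers. Mdr2-KO replicates 3 and 4 were the highest of all arrays, and replicates 1 and 2 lay below every Mdr2-KO/IL6-KO array. It rose 2.82-fold in Mdr2-KO/IL6-KO (1.49 ± 0.20, adjusted p = 0.000772) and 3.07-fold in Mdr2-KO (1.62 ± 0.20, adjusted p = 0.00108).

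Vtcn1, an inhibitory B7 family protein of epithelia, read 5.54, 5.59, 5.63 and 5.22 in Mdr2-KO/IL6-KO, 5.20, 5.39, 5.36 and 5.27 in Mdr2-KO, and 4.77, 4.62 and 4.76 in WT livers. It rose 1.72-fold in Mdr2-KO/IL6-KO (0.78 ± 0.10 SE on the log2 scale, adjusted p = 0.000983) and 1.5-fold in Mdr2-KO (0.59 ± 0.10, adjusted p = 0.0131). All knockout arrays lay above the WT arrays, and the Mdr2-KO call was lost without WT replicate 2 (0.0719). St14, the membrane serine protease matriptase, averaged 5.78 ± 0.194 in Mdr2-KO/IL6-KO, 5.71 ± 0.0972 in Mdr2-KO and 5.15 ± 0.124 in WT livers (SD, n = 4, 4 and 3), and it rose in Mdr2-KO/IL6-KO (adjusted p = 0.00583) and in Mdr2-KO (adjusted p = 0.0254). In Mdr2-KO the St14 call was lost without WT replicate 2 or 3 or replicate 3 of that group (0.0662 to 0.119). Muc1, an apical mucin, had a change of 0.54 ± 0.19 SE in Mdr2-KO/IL6-KO (adjusted p = 0.163) and 0.56 ± 0.19 in Mdr2-KO (adjusted p = 0.268). It passed in Mdr2-KO/IL6-KO without that group's replicate 4 (0.0414), its lowest array.

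Prom1, the progenitor marker CD133, read 4.66, 4.85, 4.88 and 4.38 in Mdr2-KO/IL6-KO, 4.48, 4.54, 4.03 and 4.19 in Mdr2-KO, and 4.14, 4.30 and 4.16 in WT livers. The Mdr2-KO arrays spanned the WT range, whereas the Mdr2-KO/IL6-KO arrays lay above it. Its change was 0.49 ± 0.14 SE in Mdr2-KO/IL6-KO (adjusted p = 0.0779) and 0.11 ± 0.14 in Mdr2-KO (adjusted p = 0.909). In Mdr2-KO/IL6-KO it passed without that group's replicate 4 (0.0278) and under quantile normalization (0.0208).

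Of 5 transport and secretion genes of the duct, 3 rose in Mdr2-KO/IL6-KO (2.91% of all genes) and 2 in Mdr2-KO (0.948% of all genes). Cftr, the apical chloride channel of cholangiocytes, read 4.43, 4.34, 4.07 and 4.48 in Mdr2-KO/IL6-KO, 4.30, 4.17, 4.20 and 4.55 in Mdr2-KO, and 3.38, 3.68 and 3.55 in WT livers. No knockout array overlapped the WT arrays, and all arrays lay below the mean level of the median gene, 5.57. Cftr rose 1.74-fold in Mdr2-KO/IL6-KO (0.80 ± 0.12 SE on the log2 scale, adjusted p = 0.0024) and 1.71-fold in Mdr2-KO (0.77 ± 0.12, adjusted p = 0.00689). Slc5a1, the sodium-glucose cotransporter that takes glucose back from bile, read 5.91, 5.74, 6.05 and 5.38 in Mdr2-KO/IL6-KO, 5.93, 5.73, 5.83 and 5.92 in Mdr2-KO, and 5.05, 5.25 and 5.21 in WT livers. Mdr2-KO/IL6-KO replicate 4 came nearest to the WT arrays. Slc5a1 rose 1.51-fold in Mdr2-KO/IL6-KO (0.60 ± 0.13, adjusted p = 0.0222) and 1.6-fold in Mdr2-KO (0.68 ± 0.13, adjusted p = 0.0231). The Mdr2-KO/IL6-KO call left the threshold without any 1 WT array or replicate 1, 2 or 3 of its own group (0.0512 to 0.104), and the Mdr2-KO call without any 1 WT array or replicate 1, 3 or 4 of its own group (0.0523 to 0.12).

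Aqp1, the water channel of duct and vessel cells, averaged 8.70 ± 0.118 in Mdr2-KO/IL6-KO, 8.54 ± 0.166 in Mdr2-KO and 8.06 ± 0.218 in WT livers (SD, n = 4, 4 and 3). It rose 1.56-fold in Mdr2-KO/IL6-KO (adjusted p = 0.00803), and in Mdr2-KO its change was 0.48 (adjusted p = 0.0818). The bicarbonate exchanger Slc4a2 and the secretin receptor Sctr, both central to ductal bicarbonate secretion, passed in neither group. Slc4a2 averaged 6.69 ± 0.0641 in Mdr2-KO/IL6-KO, 6.73 ± 0.0976 in Mdr2-KO and 6.53 ± 0.206 in WT livers, and Sctr averaged 5.29 ± 0.194 in Mdr2-KO/IL6-KO, 5.33 ± 0.332 in Mdr2-KO and 5.17 ± 0.0448 in WT livers. The arrays of both genes overlapped between groups.

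Bicc1 and Pkhd1, both tied to cystic disease, rose in both groups, and the actin adaptor Sorbs2 in Mdr2-KO/IL6-KO. Bicc1, an RNA-binding protein whose loss gives kidney and bile duct cysts in mice, read 7.08, 7.25, 7.47 and 7.04 in Mdr2-KO/IL6-KO, 7.21, 7.14, 7.38 and 7.09 in Mdr2-KO, and 6.09, 6.23 and 6.37 in WT livers. The knockout groups were nearly level with each other and clear of WT. Bicc1 rose 1.97-fold in Mdr2-KO/IL6-KO (0.98 ± 0.12 SE on the log2 scale, adjusted p = 0.000466) and 1.96-fold in Mdr2-KO (0.97 ± 0.12, adjusted p = 0.00108). Its other probe set, which was not used for the tests, had a change of 1.16 in Mdr2-KO/IL6-KO and 1.27 in Mdr2-KO. Pkhd1 encodes fibrocystin, the ciliary membrane protein lost in congenital hepatic fibrosis, and its promoter held the HNF1 letters shown above. It read 6.88, 7.06, 7.08 and 6.74 in Mdr2-KO/IL6-KO, 7.09, 6.60, 6.91 and 6.74 in Mdr2-KO, and 5.71, 6.03 and 6.15 in WT livers. Pkhd1 rose 1.97-fold in Mdr2-KO/IL6-KO (0.98 ± 0.14, adjusted p = 0.00132) and 1.83-fold in Mdr2-KO (0.87 ± 0.14, adjusted p = 0.00638), with no overlap of arrays.

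Sorbs2, an adaptor that links actin to junctions, read 8.38, 8.31, 8.43 and 8.39 in Mdr2-KO/IL6-KO, 8.13, 7.94, 8.27 and 8.26 in Mdr2-KO, and 7.42, 7.96 and 7.63 in WT livers. The Mdr2-KO/IL6-KO arrays lay above all other arrays, and Mdr2-KO replicate 2 fell within the WT range. Sorbs2 rose 1.63-fold in Mdr2-KO/IL6-KO (0.71 ± 0.12 SE on the log2 scale, adjusted p = 0.00446). In Mdr2-KO the change was 0.48 ± 0.12 (adjusted p = 0.085), and it passed without WT replicate 2 (0.0285) or replicate 2 of its own group (0.0383).

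The Notch pathway, which directs duct formation, had 0 of its 3 genes called in either group. Of all genes, 2.91% were called higher and 1.28% lower in Mdr2-KO/IL6-KO, and 0.948% higher and 0.316% lower in Mdr2-KO. Jag1, the ligand, averaged 6.74 ± 0.0489 in Mdr2-KO/IL6-KO, 6.66 ± 0.201 in Mdr2-KO and 6.30 ± 0.196 in WT livers (SD, n = 4, 4 and 3). Its arrays did not overlap with WT in either group, but its adjusted p was 0.0568 in Mdr2-KO/IL6-KO and 0.227 in Mdr2-KO. The Mdr2-KO/IL6-KO value passed without Mdr2-KO replicate 2 (0.0213), with only the 2 groups compared (0.035), among genes above the median gene (0.0313) and under eBayes with trend and robust (0.0416). The receptor Notch2 had a change of 0.14 in Mdr2-KO/IL6-KO (adjusted p = 0.616) and 0.11 in Mdr2-KO (adjusted p = 0.844). The target gene Hes1 lay between 6.26 and 7.09 in Mdr2-KO/IL6-KO, between 6.54 and 7.29 in Mdr2-KO and between 6.99 and 7.11 in WT livers, so the groups overlapped. Its change was -0.29 in Mdr2-KO/IL6-KO (adjusted p = 0.555) and -0.17 in Mdr2-KO (adjusted p = 0.885). Of 22 other Notch pathway genes 0 were called in either group by limma, with 2 at an unadjusted p under 0.05 in Mdr2-KO/IL6-KO and 0 in Mdr2-KO. Over all genes 15.5% were under it in Mdr2-KO/IL6-KO and 9.79% in Mdr2-KO. The lowest p belonged to Lfng in Mdr2-KO/IL6-KO (change -0.28, adjusted p = 0.211) and to Ncstn in Mdr2-KO (0.17, adjusted p = 0.688).

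The 14 genes called in neither group had changes from -0.29 to 0.57 in Mdr2-KO/IL6-KO, with a median of 0.25, and from -0.17 to 0.56 in Mdr2-KO, with a median of 0.26. Besides the Notch genes they comprised Krt7, Sox9, Sox4, Elf3, Grhl2, Cldn3, Cldn7, Prom1, Muc1, Slc4a2 and Sctr. The median 95% interval of a change against WT over the 36 genes reached 0.28 to either side.

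Loss of IL-6 in addition to Mdr2 gave no called difference in ductular genes. In Mdr2-KO/IL6-KO minus Mdr2-KO 0 of 36 genes passed by limma, as did 0.00502% of all genes, which is 1 gene. Differences ran from -0.20 for Elf3 to 0.40 for Krt23, with a median of 0.04 against 0.01 over all genes. Before adjustment 3 genes had a p under 0.05, all higher in Mdr2-KO/IL6-KO, where 4.82% of all genes did in either direction. Prom1 differed by 0.38 ± 0.13 SE, Krt23 by 0.40 ± 0.14 and Krt8 by 0.34 ± 0.14, each with an adjusted p of 0.9995. Their per-array values, given above, overlapped between the knockout groups. Sorbs2 was the only gene whose arrays did not overlap: its 4 Mdr2-KO/IL6-KO arrays lay above its 4 Mdr2-KO arrays, as was so for 1.6% of all genes, and it differed by 0.23 ± 0.11.

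A missed threshold does not show that the knockout groups were alike, but the intervals bound the difference. For 32 of 36 genes the 95% interval of the difference stayed within 1.5-fold either way, and for all 36 within 2-fold. The interval reached past 1.5-fold, upward, for Krt23, Prom1, Krt8 and Krt18. Over all 36 genes the interval bounds ran from -0.52 to 0.70. For Tspan8, the gene furthest above WT, the difference between the knockout groups was 0.08 with an interval from -0.27 to 0.44. For Krt19 it was -0.08, from -0.47 to 0.32, and for Epcam 0.07, from -0.24 to 0.38. The sign of the difference between the knockout groups changed for 22 of 36 genes, Krt19 and Epcam among them, when some single array was left out.

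**Figure D4:**
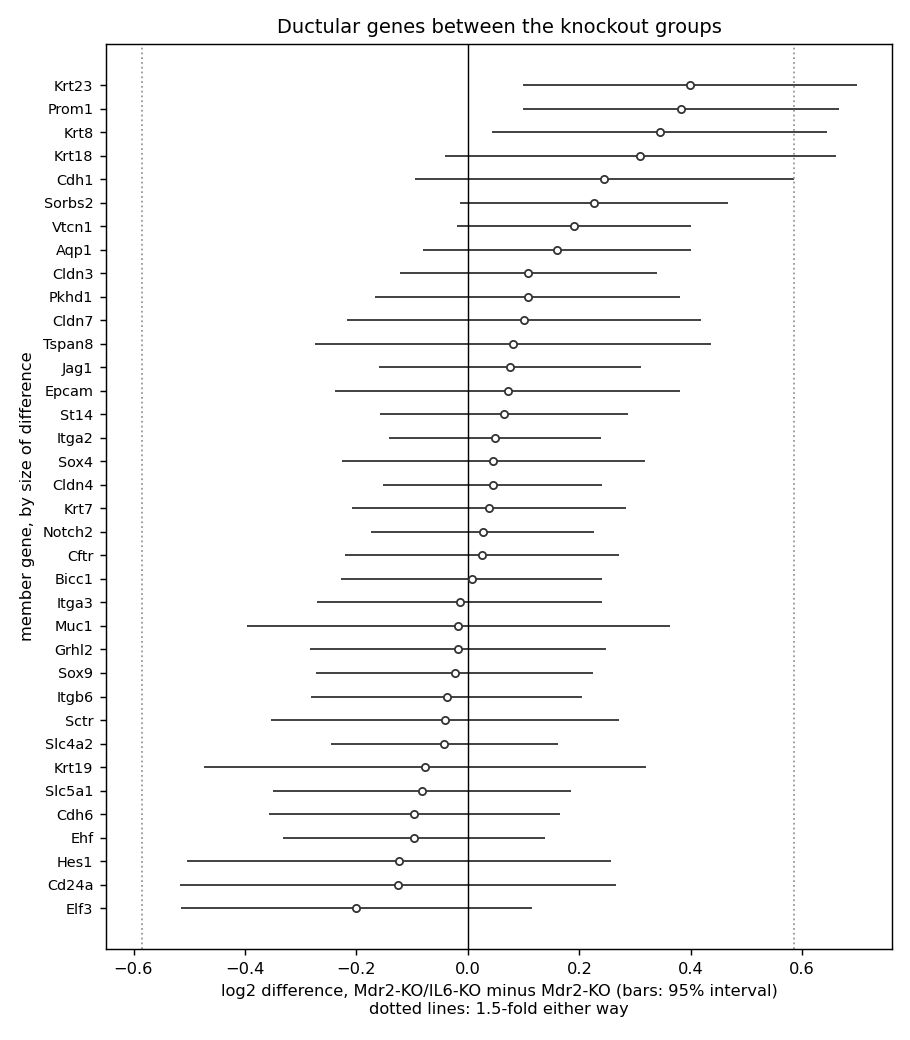
Log2 difference between Mdr2-KO/IL6-KO and Mdr2-KO for each of the 36 genes, ordered by size down the page, with the 95% interval of the limma fit as bars and dotted lines at 1.5-fold either way. Krt23, Prom1, Krt8 and Krt18 are at the top, with intervals past the right dotted line.

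Arrays of 1 group did not hold ductular genes at 1 level. The mean over the 36 genes, each taken relative to its WT mean, was 0.66, 0.65, 0.80 and 0.58 on the 4 Mdr2-KO/IL6-KO arrays and 0.58, 0.55, 0.70 and 0.63 on the 4 Mdr2-KO arrays. The WT arrays lay at -0.03, 0.00 and 0.03. Array medians over all probe sets themselves ran from 5.09 to 5.23, and their part in these means was not tested. Replicate 3 of Mdr2-KO/IL6-KO was the highest of its group for 21 of 36 genes, and its replicate 4 the lowest for 17. Replicate 3 of Mdr2-KO was the highest of its group for 15 genes and its replicate 2 the lowest for 16. Each knockout array had between 30 and 34 of the 36 genes above all WT arrays. The shares of all genes for which these counts by single array would hold are not given here.

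Of 17 other biliary genes measured, 3 rose and 1 fell in Mdr2-KO/IL6-KO, and 1 rose in Mdr2-KO. Of all genes, 2.91% were called higher and 1.28% lower in Mdr2-KO/IL6-KO, and 0.948% were called higher in Mdr2-KO. Mmp7, the protease matrilysin secreted by injured bile ducts, averaged 6.85 ± 0.335 in Mdr2-KO/IL6-KO, 6.96 ± 0.168 in Mdr2-KO and 5.61 ± 0.185 in WT livers (SD, n = 4, 4 and 3). It rose 2.35-fold in Mdr2-KO/IL6-KO (adjusted p = 0.000772) and 2.55-fold in Mdr2-KO (adjusted p = 0.00108), and both calls held whichever array was left out. In Mdr2-KO/IL6-KO, Ncam1, a marker of reactive ductules, rose by 0.49 (adjusted p = 0.0239) and Wfdc2, a secreted epithelial protein, by 0.53 (adjusted p = 0.0407). Lcn2, an acute-phase protein that hepatocytes also secrete, fell to 9.70 ± 0.083 in Mdr2-KO/IL6-KO, against 10.99 ± 0.546 in WT livers (adjusted p = 0.0197). In Mdr2-KO it averaged 10.58 ± 0.602, a change of -0.41 against WT (adjusted p = 0.745). Of the 17 genes, Lcn2 alone had all Mdr2-KO/IL6-KO arrays below all Mdr2-KO arrays. The share of all genes for which this was so is not given here. The Lcn2 difference between the knockout groups was -0.88 ± 0.26 SE (adjusted p = 0.806). It was not called, though larger in size than that of any of the 36 ductular genes. The calls of Ncam1, Wfdc2 and Lcn2 were lost without WT replicate 1 and some other arrays, with adjusted p of up to 0.115 for Ncam1, 0.171 for Wfdc2 and 0.0999 for Lcn2.

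Of 28 other tight junction and polarity genes, 8 rose in Mdr2-KO/IL6-KO (2.91% of all genes) and 2 in Mdr2-KO (0.948% of all genes). Ocln, the tight junction protein occludin, rose 2.15-fold in Mdr2-KO/IL6-KO (adjusted p = 0.00138) and 1.76-fold in Mdr2-KO (adjusted p = 0.0201). Spint2, an inhibitor of matriptase, rose 1.49-fold in Mdr2-KO/IL6-KO (adjusted p = 0.00171) and 1.35-fold in Mdr2-KO (adjusted p = 0.0204). Cldn1, F11r, Cgn, Prss8, Dsp and Dsg2 were called in Mdr2-KO/IL6-KO, with log2 changes from 0.46 for Cgn and Dsp to 0.81 for Cldn1. In Mdr2-KO/IL6-KO the calls of Ocln, Spint2 and Cldn1 held whichever array was left out. Those of F11r, Cgn, Prss8, Dsp and Dsg2 were lost without WT replicate 1 or 3 and some knockout arrays, with adjusted p of up to 0.222 for Cgn. In Mdr2-KO both calls were lost without WT replicate 2 or 3 or that group's replicate 3, Ocln at up to 0.0925 and Spint2 at up to 0.0952, and Spint2 also without replicate 1 of WT or of Mdr2-KO.

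Of 14 other integrins and laminins, 5 rose in Mdr2-KO/IL6-KO (2.91% of all genes): Itgb8, Itgav, Lama5, Lamb1 and Lamc1. Their changes ran from 0.35 for Itgav to 0.59 for Itgb8. In Mdr2-KO 0 passed, where 0.948% of all genes were called higher. There 5 had an unadjusted p under 0.05 (9.79% of all genes), and Lamb1 had the lowest (change 0.35, adjusted p = 0.0757). The Lamc1 call held whichever array was left out, and the other 4 were lost without WT replicate 1 or 3 or replicate 1 of Mdr2-KO/IL6-KO, among others, with adjusted p of up to 0.197 for Itgb8.

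Of 14 further genes of bile fluid and bicarbonate secretion only Car2, a carbonic anhydrase, passed, in Mdr2-KO/IL6-KO (log2 change 0.54, adjusted p = 0.0162). In Mdr2-KO its change was 0.43 (adjusted p = 0.0983). Of all genes, 2.91% were called higher in Mdr2-KO/IL6-KO and 0.948% in Mdr2-KO. Of 11 cilium and cystic liver genes, Ift57, a protein of intraflagellar transport, rose by 0.69 in each group (adjusted p = 0.015 in Mdr2-KO/IL6-KO and 0.0314 in Mdr2-KO). The cilium motor subunit Kif3a (0.51, adjusted p = 0.00283) and Invs, inversin (0.32, adjusted p = 0.048), rose in Mdr2-KO/IL6-KO. Of these calls, that of Kif3a held whichever array was left out. Car2 was lost without WT replicate 2 or Mdr2-KO/IL6-KO replicate 1 (up to 0.0795), and Invs without 8 of the 11 arrays in turn (up to 0.201). Ift57 was lost in Mdr2-KO/IL6-KO without WT replicate 2 or 3 (up to 0.0636), and in Mdr2-KO without any 1 WT array or 3 knockout arrays in turn (up to 0.135).

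Markers of other liver cells were read on the same arrays. Hepatocyte markers had 0 of 12 called in either group, with the lowest p for Asgr1 in Mdr2-KO/IL6-KO (log2 change -0.29, adjusted p = 0.088) and Cps1 in Mdr2-KO (0.20, adjusted p = 0.464). Of the 12, 5 had an unadjusted p under 0.05 in Mdr2-KO/IL6-KO, 4 of them lower than WT, and 1 in Mdr2-KO, which was higher. Of all genes, 15.5% were under it in Mdr2-KO/IL6-KO and 9.79% in Mdr2-KO, in either direction. The change was below 0 for 8 of 12 in Mdr2-KO/IL6-KO and for 10 in Mdr2-KO. All arrays of the group lay below all WT arrays for 6 of 12 in Mdr2-KO/IL6-KO (6.44% of all genes) and for 1 in Mdr2-KO (3.64% of all genes).

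Of 14 stellate cell and portal fibroblast markers, 7 were called higher in Mdr2-KO/IL6-KO (2.91% of all genes) and 5 in Mdr2-KO (0.948% of all genes). The 7 were Rgs5, Pdgfrb, Col1a1, Col1a2, Col3a1, Lum and Eln, and the 5 were the same without Rgs5 and Eln. The mean level of the 14 markers was 7.19 to 7.47 on the Mdr2-KO/IL6-KO arrays and 7.12 to 7.27 on the Mdr2-KO arrays. It was 6.62 to 6.84 on the WT arrays. Lum, a collagen-binding proteoglycan, rose 3.97-fold in Mdr2-KO/IL6-KO (adjusted p = 0.00174) and 3.45-fold in Mdr2-KO (adjusted p = 0.00812). Col1a1, a chain of fibrillar collagen, rose 2.37-fold in Mdr2-KO/IL6-KO (adjusted p = 0.000623) and 2.03-fold in Mdr2-KO (adjusted p = 0.00561). Without any 1 WT array, among others, the calls of Rgs5 and Eln in Mdr2-KO/IL6-KO were lost (up to 0.147 for Rgs5 and 0.123 for Eln), as was that of Pdgfrb in Mdr2-KO (up to 0.166). The part of these cells in the ductular values was not tested.

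Among 9 endothelial markers Cd34, which capillarised sinusoids and vessels carry, rose 2.67-fold in Mdr2-KO/IL6-KO (adjusted p = 3.12e-05) and 2.42-fold in Mdr2-KO (adjusted p = 0.000143). Lyve1, of sinusoidal and lymphatic endothelium, rose 1.58-fold in Mdr2-KO/IL6-KO (adjusted p = 0.0357). That call was lost without WT replicate 1 or 3 and 4 knockout arrays in turn (up to 0.156). Of all genes, 2.91% were called higher and 1.28% lower in Mdr2-KO/IL6-KO, and 0.948% higher and 0.316% lower in Mdr2-KO. The mean of the 9 was 7.27 to 7.45 on the Mdr2-KO/IL6-KO arrays, 7.14 to 7.35 on the Mdr2-KO arrays and 6.83 to 7.16 on the WT arrays, and its part in the level of Aqp1, which vessels also express, was not tested. Macrophage markers had 0 of 10 called in either group (1 at an unadjusted p under 0.05 in Mdr2-KO/IL6-KO and 2 in Mdr2-KO). Ccr2 had the lowest p in both, with an adjusted p of 0.298 in Mdr2-KO/IL6-KO and 0.398 in Mdr2-KO. Of 9 lymphocyte markers Cd8a fell in Mdr2-KO/IL6-KO (log2 change -0.58, adjusted p = 0.0464), and its change in Mdr2-KO was -0.55 (adjusted p = 0.115). The Cd8a call was lost without 8 of the 11 arrays in turn, WT replicate 1 among them (up to 0.204). In Mdr2-KO/IL6-KO 6 of the 9 had an unadjusted p under 0.05, 5 of them lower than WT, and in Mdr2-KO 3 did, 2 of them lower. Of all genes, 15.5% were under it in Mdr2-KO/IL6-KO and 9.79% in Mdr2-KO, in either direction. The change was below 0 for 7 of 9 in Mdr2-KO/IL6-KO, with a median of -0.32, and for 8 of 9 in Mdr2-KO, with a median of -0.19. The mean of the list was 4.42 to 4.62 on the Mdr2-KO/IL6-KO arrays, 4.44 to 4.76 on the Mdr2-KO arrays and 4.59 to 5.11 on the WT arrays, and its part in the ductular values was not tested.

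Pancreas and gut epithelium share keratins, claudins and Tspan8 with bile ducts, so their markers were read too. Of 7 pancreas markers 0 were called in either group, with 0 at an unadjusted p under 0.05, and their mean was 4.44 to 4.64 on the Mdr2-KO/IL6-KO arrays, 4.29 to 4.98 on the Mdr2-KO arrays and 4.60 to 4.68 on the WT arrays. Ins2 had the lowest p in Mdr2-KO/IL6-KO (log2 change -0.18, adjusted p = 0.619) and Ctrb1 in Mdr2-KO (0.15, adjusted p = 0.857). Of 9 gut markers 0 were called in either group. In Mdr2-KO/IL6-KO 2 had an unadjusted p under 0.05, all lower than WT, and in Mdr2-KO 4 did, 3 lower and 1 higher. Of all genes, 15.5% were under it in Mdr2-KO/IL6-KO and 9.79% in Mdr2-KO. Changes of the 9 ran from -0.96 to 0.19 in Mdr2-KO/IL6-KO and from -0.88 to 0.53 in Mdr2-KO. The mean of the 9 was 5.59 to 5.63 on the Mdr2-KO/IL6-KO arrays and 5.58 to 5.71 on the Mdr2-KO arrays. It was 5.76 to 5.87 on the WT arrays. The stem cell gene Lgr5, which pericentral hepatocytes also express, had the lowest p in both groups, with a change of -0.63 in Mdr2-KO/IL6-KO (adjusted p = 0.0534) and -0.71 in Mdr2-KO (adjusted p = 0.0652). Among genes above the median gene it passed in both, at 0.0339 in Mdr2-KO/IL6-KO and 0.0445 in Mdr2-KO.

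**Figure D5:**
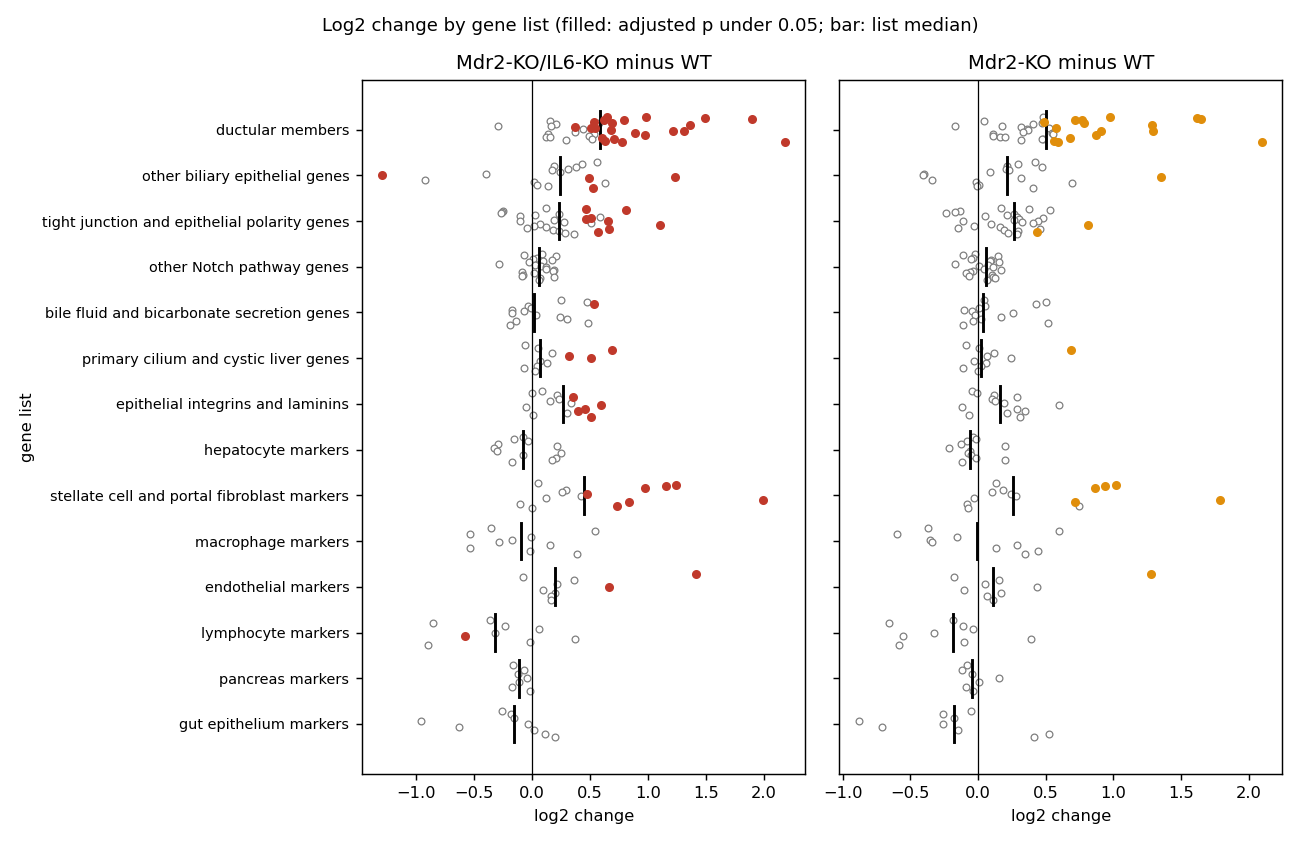
Log2 change of each measured gene by list, with Mdr2-KO/IL6-KO minus WT in the left panel and Mdr2-KO minus WT in the right; filled points have an adjusted p under 0.05 and the black bar is the list median. The 36 ductular genes have a median of 0.59 in the left panel and 0.50 in the right, and the stellate cell and portal fibroblast list has 0.45 in the left and 0.26 in the right.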

How the data were processed

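Total liver RNA was hybridised to 11 Affymetrix arrays. The authors deposited 1 table of log2 levels for 35557 probe sets, for which the submitters' processing notes name RMA and Partek; no source used here states their settings. The number of arrays limits the precision. The values were used without further normalization. Symbols came from the platform annotation, updated against RefSeq (GRCm38.p6): 21789 probe sets had 1 symbol, 1621 several and 12147 none. Of 19938 genes, 19919 matched RefSeq, and 999 had several probe sets, of which the one with the highest mean was kept.

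One linear model per gene with a mean per group was fitted to all arrays with limma 3.58.1 in R 4.3.3 and eBayes. Tests were two-sided, p-values were adjusted over all genes by the Benjamini-Hochberg method, and the threshold was 0.05. Errors of changes are SE from that model, and errors of levels are SD over arrays. The fit was tested on simulated data. The labels gave no batch, litter or pairing.

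The 36 genes and all other lists were chosen with earlier results of these data known. All 36 are accounted for. Per-array values were given for up to 12 called genes by size of change in each comparison with WT and for the 3 with the lowest p between the knockout groups, and of other lists the called genes and the one with the lowest p were named. Other genes' values and promoters shown were chosen after the values were seen. The alternatives averaged all probe sets of a gene, kept only genes above the median gene, applied quantile normalization or median centring, ran eBayes with trend and robust, fitted only the 2 groups compared, set the threshold at 0.01, or left out 1 array at a time.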

Additional observations from a re-analysis of the deposited data

Results flagged for a closer look

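Over the 72 combinations of a ductular gene and a knockout group, 5 held 1 array set far apart from the other 3 (a gap above Dixon's critical value, which chance gives in about 1 in 20 groups). Krt7 was low in Mdr2-KO replicate 1, at 5.97 against 6.02 to 6.03 in the other arrays of that group, a gap of small size. Elf3 was low in Mdr2-KO/IL6-KO replicate 1, at 4.66 against 5.03 to 5.06, and high in Mdr2-KO replicate 3, at 5.53 against 4.99 to 5.05. Itgb6 was low in Mdr2-KO replicate 2, at 4.38 against 4.68 to 4.72. Aqp1 was high in Mdr2-KO replicate 4, at 8.79 against 8.44 to 8.48.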

How the results depend on the processing

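The count of ductular genes higher than WT was 22 in Mdr2-KO/IL6-KO and 16 in Mdr2-KO. At an adjusted p under 0.01 it was 16 in Mdr2-KO/IL6-KO and 10 in Mdr2-KO. Only 24 of the 36 genes lay above the median gene, and among these it was 18 in Mdr2-KO/IL6-KO and 12 in Mdr2-KO. Leaving out 1 array at a time gave 16 to 24 in Mdr2-KO/IL6-KO and 11 to 17 in Mdr2-KO, and 16 of the 22 and 10 of the 16 genes were called whichever array was left out. Of calls in the other gene lists, 12 of 31 in Mdr2-KO/IL6-KO and 6 of 10 in Mdr2-KO were. Between the knockout groups it was 0 under every alternative run. Over all genes, the count called in Mdr2-KO/IL6-KO against WT was 836, and 342 at an adjusted p under 0.01, and 464 to 989 with 1 array left out. In Mdr2-KO against WT it was 252, and 94 at an adjusted p under 0.01, 138 with only the 2 groups compared, and 148 to 323 with 1 array left out. Between the knockout groups it was 1, and 4 among genes above the median gene, 2 under median centring, 2 under eBayes with trend and robust, and 1 to 5 with 1 array left out. The causes of these differences between settings were not tested. No ductular gene changed sign in Mdr2-KO/IL6-KO minus WT. In Mdr2-KO minus WT Cldn3 did, not called, at -0.028 without WT replicate 1 (-0.028 to 0.092 over all arrays left out). Between the knockout groups, where none was called, 22 of 36 did with some array left out, and Bicc1 also under quantile normalization and with the mean of its probe sets. Over the arrays left out Krt19 ran from -0.242 to 0.0953 there and Epcam from -0.0845 to 0.169.

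Under settings other than leaving out an array, calls near the threshold moved. Beside those in the report, Itga2 in Mdr2-KO/IL6-KO left it under eBayes with trend and robust (adjusted p = 0.052), and Itgb6 in Mdr2-KO with only the 2 groups compared (0.0547). Sox4 in Mdr2-KO/IL6-KO passed under eBayes with trend and robust (0.0424). Sox4 and Cldn7 in Mdr2-KO/IL6-KO passed among genes above the median gene (0.0308 for Sox4 and 0.0396 for Cldn7), as did Itga3 and Aqp1 in Mdr2-KO (0.0483 for Itga3 and 0.0487 for Aqp1). Of the other lists, Wfdc2, Cgn, Dsg2, Dsp, F11r, Prss8, Invs, Itgav, Itgb8, Lama5, Rgs5, Lyve1 and Cd8a in Mdr2-KO/IL6-KO and Ift57, Ocln, Spint2 and Pdgfrb in Mdr2-KO left it under quantile normalization, median centring or with only the 2 groups compared (0.0501 to 0.0852). Among genes above the median gene Asgr1 passed in Mdr2-KO/IL6-KO (0.0385) and Lamb1 in Mdr2-KO (0.0333). No paired analysis was possible because the labels give no litter or pairing. The replicate numbers used here only name arrays. With no detection calls, signal over background was not judged, and precision was limited by 3 or 4 arrays a group.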
